A study of Mus musculus with 2 samples.

Results

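The genes described here encode 10 chains of cytokine receptors of CD8 T cells: Il2ra, Il2rb and Il2rg for interleukin-2 (IL-2), Il7r for IL-7, Il12rb1, Il12rb2 and Il23r for IL-12 and IL-23, Il6st for IL-6, Il1r1 for IL-1 and Il18r1 for IL-18. They were taken by symbol, a rule that uses no measured value, and all 10 were found among the 32285 genes of both libraries. The list itself was chosen with earlier results of these data known. Levels were taken over cells that had 500 genes or more and no more than 10% of their unique molecular identifiers (UMIs) from mitochondrial genes, 709 cells in 1 library and 1018 in the other. The first library came from mice with floxed Nfatc1 and a Cd4-Cre transgene (Nfatc1f/f×Cd4-Cre), which the labels name a knockout in T cells, and the second from wild-type mice, the control group, both on the C57/B6N strain. In both, CD8 T cells were isolated with beads from mesenteric lymph nodes, polarised toward interleukin-17-producing CD8 T cells (Tc17 cells) with a commercial Th17 kit, and then given PMA at 100 ng/ml together with ionomycin at 10 μg/ml for 3 h, which replace the signal of the T-cell receptor. Cd4-Cre is active from the thymic stage at which future CD8 T cells still carry CD4, so it acts in CD8 T cells too. The labels do not say how many mice or cultures were behind a library.

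Cytokine receptors of this kind are built from chains that are shared between cytokines. The IL-2 receptor joins Il2ra, its affinity-raising α chain, with the signalling chains Il2rb and Il2rg, and Il2rg also serves the receptors for IL-7 and several other cytokines. IL-12 and IL-23 share Il12rb1, while Il12rb2 is specific to IL-12, which drives interferon-γ in type 1 cells, and Il23r to IL-23, which maintains interleukin-17-producing cells. Il6st encodes gp130, the signalling chain for IL-6, one of the cytokines that start interleukin-17 production in T cells, and Il1r1 and Il18r1 bind IL-1 and IL-18, which add to interleukin-17 and interferon-γ production.

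Il12rb2 (ENSMUSG00000018341; chromosome 6, 67291318 to 67376188) and Il23r (ENSMUSG00000049093; chromosome 6, 67422932 to 67491855) are neighbours on the minus strand of mm10, 46743 bases apart. Il1r1 (ENSMUSG00000026072; chromosome 1, 40225080 to 40317257) lies on the plus strand. The other members are Il18r1 (chromosome 1, 40465552 to 40500854), Il2ra (chromosome 2, 11642807 to 11693193), Il12rb1 (chromosome 8, 70808449 to 70821424), Il6st (chromosome 13, 112464070 to 112510086), Il7r (chromosome 15, 9505788 to 9530176), Il2rb (chromosome 15, 78479256 to 78495271) and Il2rg (chromosome X, 101264378 to 101268255). The 250 bases before the start of these 3 genes are shown because Il23r and Il1r1 were the members higher in Il17a-producing cells, and Il12rb2, the neighbour of Il23r, ran the other way between the libraries. They come from the RefSeq promoter table (GRCm38.p6), which held an entry for 8 of the 10 members and none for Il2rb and Il12rb1. Capitals mark AGGTCA, a half-site bound by nuclear receptors of the ROR family, on either strand (TGACCT on the other), and TTCNNNGAA, the palindrome bound by STAT factors, which carry the signal of all these receptors but those for IL-1 and IL-18. The windows are chr6:67491856-67492105 on the minus strand for Il23r, chr1:40224830-40225079 on the plus strand for the first of the listed starts of Il1r1, and chr6:67376189-67376438 on the minus strand for Il12rb2.
Il23r: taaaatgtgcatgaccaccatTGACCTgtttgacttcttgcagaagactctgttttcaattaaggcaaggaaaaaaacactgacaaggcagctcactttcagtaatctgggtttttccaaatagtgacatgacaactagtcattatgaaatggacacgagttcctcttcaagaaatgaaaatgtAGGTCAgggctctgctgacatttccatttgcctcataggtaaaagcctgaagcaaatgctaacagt
Il1r1: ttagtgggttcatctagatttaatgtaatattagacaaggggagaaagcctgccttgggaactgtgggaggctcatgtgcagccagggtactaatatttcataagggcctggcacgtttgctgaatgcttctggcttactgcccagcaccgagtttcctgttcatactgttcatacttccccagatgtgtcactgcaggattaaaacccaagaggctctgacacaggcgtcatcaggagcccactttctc
Il12rb2: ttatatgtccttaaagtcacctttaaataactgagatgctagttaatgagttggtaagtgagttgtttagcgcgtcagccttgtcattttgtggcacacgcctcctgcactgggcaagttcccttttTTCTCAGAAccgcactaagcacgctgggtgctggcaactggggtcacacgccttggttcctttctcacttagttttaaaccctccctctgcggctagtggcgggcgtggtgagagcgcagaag
The Il23r window held 2 ROR half-sites, 229 and 66 bases before the start, and 0 STAT matches. The Il12rb2 window held 1 STAT match at 123 bases and 0 ROR half-sites, and the Il1r1 window 0 of either. Among 32851 promoter windows of the same length, 14% held a ROR half-site and 7.02% a STAT match. No window shown held both patterns, so no match overlapped one of the other kind. A match is a description of the letters, not a measured binding site.

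With 1 library per group no p-value was computed, since cells of 1 library are not replicates. All intervals are 95% and cover counting error only, not the spread between cells, mice or cultures. The libraries held 17898193 and 24452538 UMIs, with medians of 21436 and 20906 UMIs per cell, for the Nfatc1-knockout-labelled and the wild-type-labelled library in that order, and shared 0 barcodes. Nfatc1 itself stood at 136 CPM (UMIs of a gene divided by all UMIs and scaled to a common total) in the knockout-labelled and 39.8 CPM in the library labelled wild type, 3.42-fold higher (3.17 to 3.68), against its label. Reads of this kit lie at the 3′ end of a transcript and the sources used here do not say where the deletion lies, so this level does not check the deletion, and every direction below rests on the labels. Cd8b1 was detected in 96.5% and 96.6% of cells, and both natural killer cell markers, Ncr1 and Klrb1c, were at 0 in both libraries. The 4 markers of γδ or innate-like T cells summed to 2.01 and 0.368 CPM, with Sox13 at 0 in the knockout-labelled library, and the 2 regulatory T-cell markers to 5.08 and 12 CPM. The 3 markers of innate lymphoid or mast cells summed to 48.7 and 103 CPM, with at least 1 of them found in 41.5% and 69.2% of cells. Kit held 38.6 and 102 CPM of this and Cpa3 was at 0 in both libraries. The third, Il1rl1, ran the other way, at 10.1 and 1.35 CPM. The sum of the 3 was lower in the knockout-labelled library in 8 of 8 classes.

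Summed over all cells, Il2ra was the highest receptor gene of both libraries, and the IL-12, IL-23 and IL-6 receptor genes the lowest. Each UMI stands for 1 captured transcript end, so CPM are not scaled by length. Il2ra stood at 590 CPM (579 to 602) in the knockout-labelled library and 786 CPM (775 to 797) in the wild-type-labelled library. Il2rg followed at 236 and 224 CPM, then Il2rb at 105 and 132 CPM. Il7r stood at 82.2 CPM in the knockout-labelled and 134 CPM in the library labelled wild type, where its interval (130 to 139) met that of Il2rb (127 to 136), so these neighbours could not be ordered there. Below these 4 chains came Il18r1, the ligand-binding chain of the IL-18 receptor, at 42.8 and 37.0 CPM, and Il1r1, the signalling receptor for IL-1, at 23.9 and 22.5 CPM. The 4 members under 20 CPM were those named for IL-12, IL-23 and IL-6. Il6st stood at 13.3 and 8.14 CPM, Il23r at 11.6 and 4.58 CPM, Il12rb1 at 9.0 and 13.9 CPM, and Il12rb2 at 5.81 and 11.9 CPM. The intervals of Il6st and Il23r overlapped in the knockout-labelled library (11.7 to 15.1 and 10.0 to 13.3), as did those of Il12rb1 and Il12rb2 in the wild-type-labelled one (12.4 to 15.4 and 10.5 to 13.3).

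**Figure D1:**
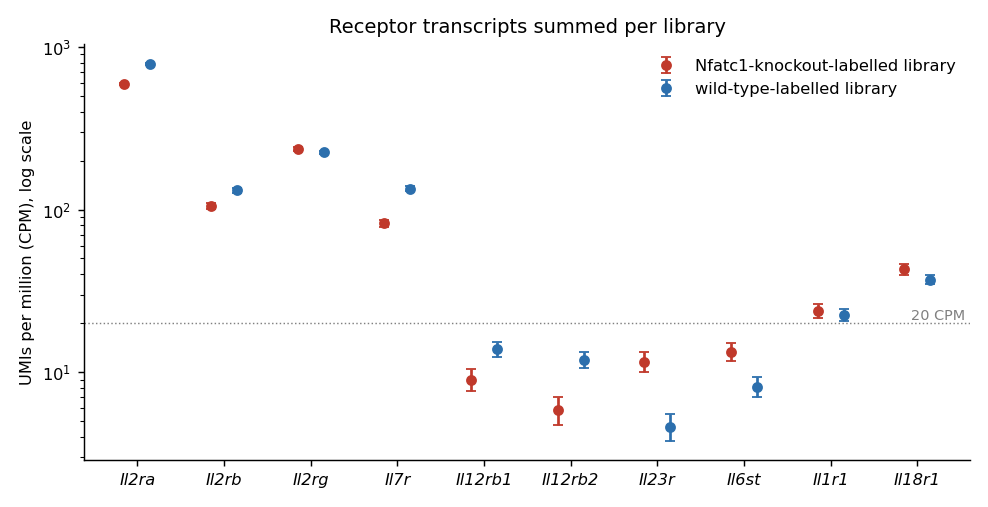
Summed level of each receptor gene in CPM (log scale) in the Nfatc1-knockout-labelled library (left point of each pair) and the wild-type-labelled library (right point); bars are exact Poisson 95% intervals and the dotted line is 20 CPM. Il2ra is highest in both, at 590 and 786 CPM, and Il23r is the member whose points lie farthest apart with the knockout-labelled one on top, at 11.6 and 4.58 CPM.

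The abundant IL-2 receptor chains were carried by most cells and the IL-12 and IL-23 chains by few. Before thinning, an Il2ra UMI was found in 93.1% of knockout-labelled and 97.3% of wild-type-labelled cells, and an Il2rg UMI in 95.5% and 96.5%. The shares were 9.45% and 14.7% for Il12rb2 and 6.49% and 5.11% for Il23r. The 10 cells richest in Il23r held 64.3% of its UMIs in the knockout-labelled and 50.9% in the library labelled wild type, while the corresponding shares for Il2ra were 9.47% and 6.42%. Interval widths for Il23r therefore understate how much its sums hang on single cells. With every cell thinned to 5000 UMIs, which left 698 knockout-labelled and 1004 wild-type-labelled cells, Il23r was detected in 3.44% (exact binomial interval 2.22 to 5.07) and 1.29% (0.691 to 2.20). Detection after thinning also rises with the UMIs per carrying cell, so these shares do not show that more cells carried Il23r. Before thinning, 46 knockout-labelled cells held 207 Il23r UMIs and 52 wild-type-labelled cells held 112.

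Between the whole libraries, no member that reached 20 CPM differed by 2-fold. A gene was called when it reached 20 CPM on at least 1 side and differed at least 2-fold on log2 of CPM plus 1. Printed folds leave that pseudocount out. Of the 6 members at that floor 0 were called, beside 4.35% of all 5584 genes. Il7r came nearest, 1.63-fold lower in the knockout-labelled library (1.54 to 1.74), and Il2ra was 1.33-fold lower (1.30 to 1.36). Regulatory T cells also carry Il2ra, and the lower sum of their markers was almost all Ikzf2. The part of the Ikzf2 and Kit signals, which were lower too, was not tested. With a floor of 1 CPM, 1 of 10 was called, beside 5.30% of 11687 genes. This was Il23r, 2.53-fold higher (2.0 to 3.21). Il12rb2, its neighbour on chromosome 6, went the other way by 2.04-fold (1.63 to 2.58), but its log2 ratio of -0.92 with the pseudocount stayed short of the threshold.

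The cells were then divided by the cytokines they made. A producer held at least 5 UMIs of a cytokine gene after thinning to 5000 UMIs, and Il17a, Ifng, Il17f and Il2 gave 8 exclusive classes. The 2 libraries filled them very differently. Cells with Il17a and Il2 but no Ifng numbered 92 of 698 in the knockout-labelled and 365 of 1004 in the library labelled wild type, cells with Il17a alone 37 and 212, and cells with Ifng and Il2 but no Il17a 243 and 26. Il17a together with Ifng was found in 35 and 45 cells, Ifng alone in 27 and 22, Il17f without Il17a or Ifng in 95 and 158, Il2 alone in 92 and 78, and none of the 4 in 77 and 98.

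Il23r and Il1r1 were higher in Il17a producers than in Ifng producers in both libraries. In the knockout-labelled library, Il23r stood at 38.6 CPM in 129 Il17a producers without Ifng and at 0.396 CPM in 270 Ifng producers without Il17a, a 97.4-fold difference that rests on 133 and 3 UMIs (32.6 to 478). In the wild-type-labelled library it stood at 6.69 CPM in 577 Il17a producers, with 102 UMIs, and had 0 UMIs in 48 Ifng producers. Set against 3 counts over that group, it was at least 2.33-fold higher, and the counting interval of the ratio began lower, at 1.86. Il1r1 stood at 65.3 and 9.64 CPM in Il17a and Ifng producers of the knockout-labelled library, 6.77-fold higher (5.18 to 8.95). In the wild-type-labelled library the values were 29.1 and 3.83 CPM, 7.58-fold higher (2.94 to 27.9), the second from 4 UMIs. The direction was thus the same in both libraries, although Il17a producers were far fewer in the knockout-labelled one.

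Il18r1 had the opposite pattern in this contrast and lay higher in Ifng producers. It stood at 34.8 CPM in Il17a producers and 65.5 CPM in Ifng producers of the knockout-labelled library, 1.88-fold lower in Il17a producers (1.54 to 2.32), and at 32.4 and 69.0 CPM in the wild-type-labelled library, 2.13-fold lower (1.64 to 2.73). Thinned detection in Il17a and Ifng producers overlapped in both libraries. It was 10.9% (6.06 to 17.5) and 18.5% (14.1 to 23.7) in the knockout-labelled library. In the wild-type-labelled library it was 9.88% (7.57 to 12.6) and 14.6% (6.07 to 27.8). There 10 cells held 90.3% of the 72 UMIs of the Ifng producers. The call in that library was lost without the richest cell of each group (log2 ratio -0.92) and with a pseudocount of 5 CPM. Il2rb, the signalling chain shared by the receptors for IL-2 and IL-15, was higher in Il17a producers, at 156 against 77.5 CPM in the knockout-labelled library, 2.01-fold (1.78 to 2.26), and at 140 against 91.0 CPM in the wild-type-labelled library, 1.54-fold (1.26 to 1.91). No difference of Il12rb2 between Il17a and Ifng producers could be shown, at 4.35 and 4.62 CPM in the knockout-labelled and 9.31 and 15.3 CPM in the library labelled wild type, 1.06-fold lower (0.565 to 2.09) and 1.65-fold lower (0.916 to 2.77) in Il17a producers. In all, 2 of 7 members at the floor were called in the knockout-labelled library, Il23r and Il1r1 higher in Il17a producers, beside 7.42% of all genes. In the wild-type-labelled library 2 of 6 were called, Il1r1 higher and Il18r1 lower, beside 4.95%.

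**Figure D2:**
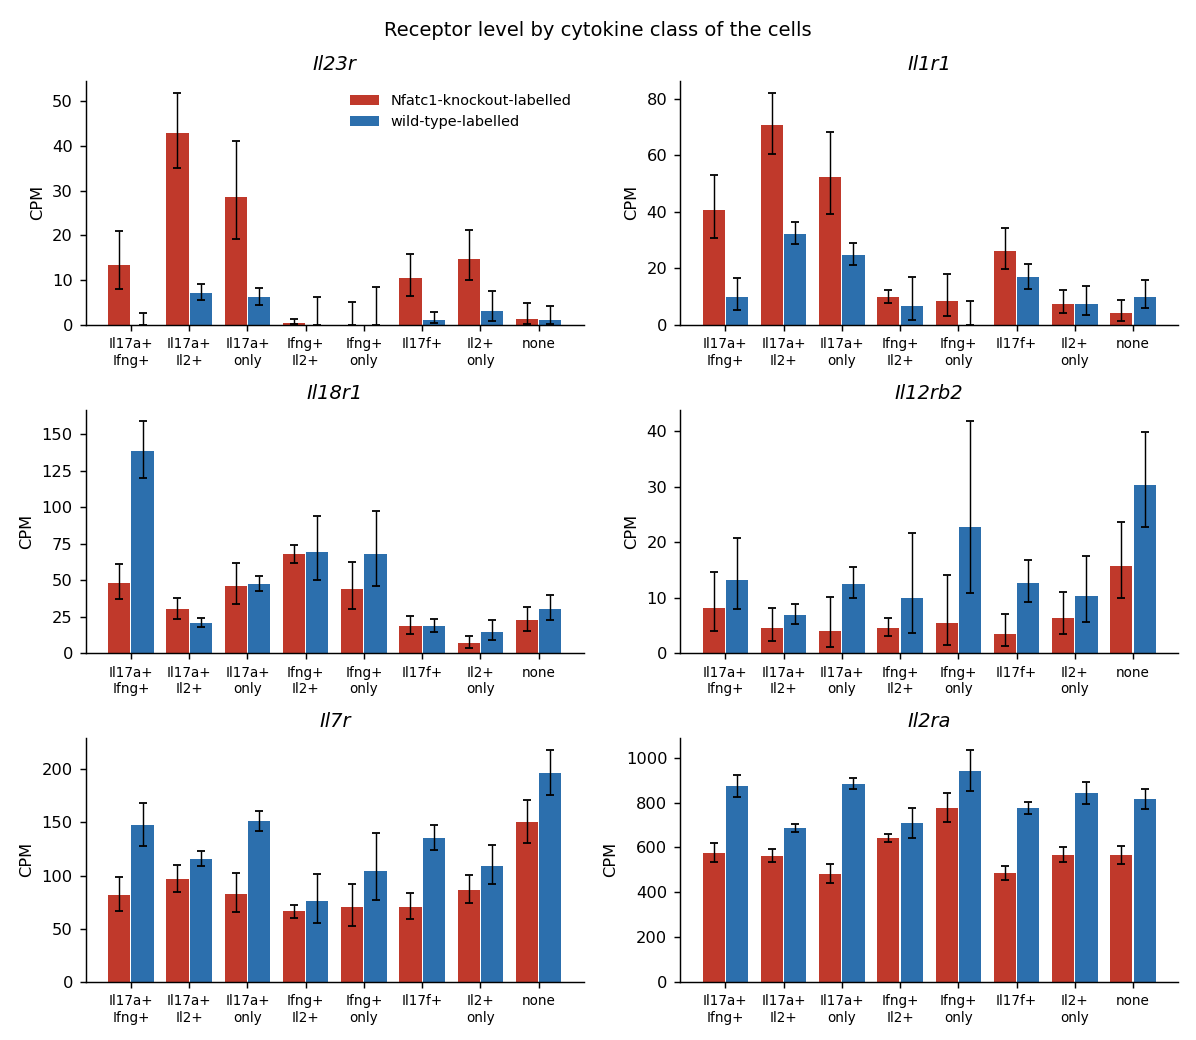
Level in CPM of 6 receptor genes in the 8 cytokine classes of cells, with the Nfatc1-knockout-labelled library (left bar) beside the wild-type-labelled library (right bar); bars start at 0 and whiskers are exact Poisson 95% intervals. Il23r and Il1r1 are highest in cells with Il17a and Il2 in both libraries (42.8 and 7.13 CPM for Il23r), Il18r1 is highest among wild-type-labelled cells with Il17a and Ifng (138 CPM), and Il2ra varies least across classes of the 6 genes plotted.

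Across all 8 classes, the common γ chain was the steadiest member and Il1r1 and Il18r1 among the most variable. Il2rg ran from 214 CPM in Il17f producers to 263 CPM in cells with none of the 4 cytokines in the knockout-labelled library, a 1.23-fold range, and from 202 to 263 CPM in the wild-type-labelled library, 1.30-fold. Il2ra covered 483 to 778 CPM and 687 to 942 CPM, with its highest value in cells with Ifng alone in both libraries. Il1r1 ran from 4.11 CPM in cells with none of the 4 cytokines to 70.8 CPM in cells with Il17a and Il2 in the knockout-labelled library, a 17.2-fold range. In the wild-type-labelled library Il1r1 was highest in the same class at 32.3 CPM and had 0 UMIs in the 22 cells with Ifng alone. Il18r1 was lowest in cells with Il2 alone in both libraries, at 6.90 and 14.9 CPM, and its highest class differed, cells with Ifng and Il2 in the knockout-labelled library (67.8 CPM) and cells with Il17a and Ifng in the wild-type-labelled one (138 CPM). The 45 cells of that wild-type-labelled class included 26 with an Il18r1 UMI, and the 10 richest held 81.8% of these UMIs.

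The level of these receptors was also followed along the amount of cytokine per cell, in bins added after the data were seen. Il1r1 stood at 12.6 CPM in knockout-labelled cells with 0 Il17a UMIs per 5000 and at 82.2 CPM in those with 100 or more, and at 7.4 and 39.3 CPM in the same bins of wild-type-labelled cells. Il23r stood at 3.23 and 55.5 CPM in these bins of the knockout-labelled library and at 1.19 and 9.51 CPM in the wild-type-labelled library. The order was not even in the knockout-labelled library, where the 27 cells with 5 to 19 Il17a UMIs had 47.7 CPM of Il23r and the 94 cells with 20 to 99 had 17.2 CPM. Il18r1 stood at 18.7 CPM with 0 Ifng UMIs and at 94.3 CPM with 100 or more in the knockout-labelled library, and at 28.4 and 230 CPM in the wild-type-labelled library, the last from 17 cells. Il2ra showed no such gradient with Il17a, at 612 and 498 CPM in the end bins of the knockout-labelled and 771 and 771 CPM in those of the wild-type-labelled library. Along Il17a, Il18r1 was uneven in the knockout-labelled library. It stood at 48.4 CPM with 0 UMIs, 23.3 CPM with 5 to 19 and 80.2 CPM with 100 or more. In the wild-type-labelled library its end bins were at 31.8 and 34.2 CPM.

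**Figure D3:**
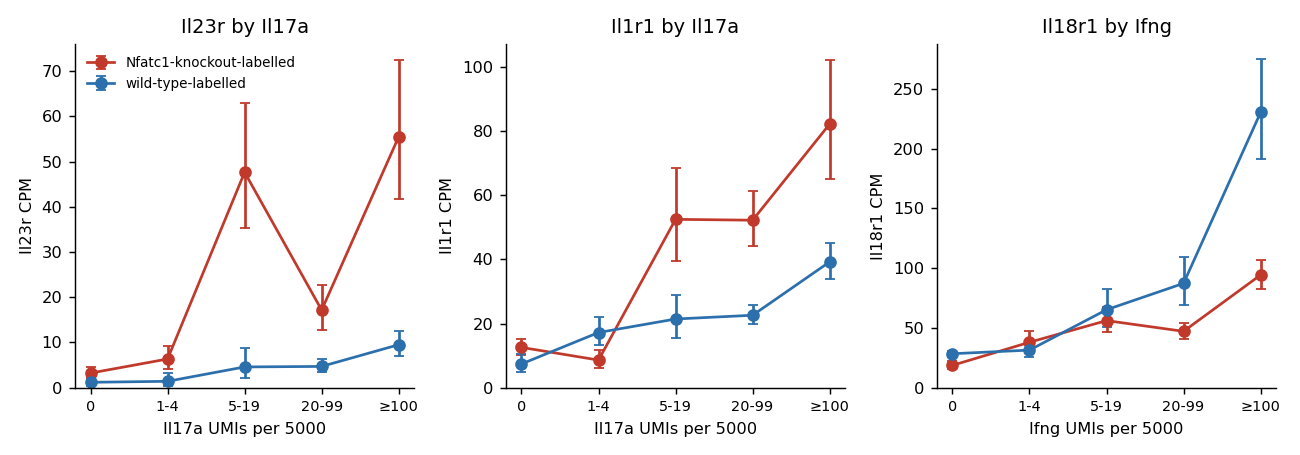
Il23r and Il1r1 level (CPM) by the number of Il17a UMIs per 5000, and Il18r1 level by the number of Ifng UMIs per 5000, in the Nfatc1-knockout-labelled (red) and wild-type-labelled (blue) library; whiskers are exact Poisson 95% intervals. The top bin is the highest of each curve: 55.5 and 9.51 CPM for Il23r, 82.2 and 39.3 CPM for Il1r1, and 94.3 and 230 CPM for Il18r1.

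Within cells that made Il17a, Il23r was higher in the knockout-labelled library by more than the whole-library values show. Among cells with Il17a and Il2 but no Ifng it stood at 42.8 CPM (104 UMIs) in the knockout-labelled and 7.13 CPM (62 UMIs) in the library labelled wild type, 6.01-fold higher (4.35 to 8.37). Among cells with Il17a alone the values were 28.6 and 6.11 CPM, 4.67-fold higher (2.80 to 7.73), but 1 of the 4 carriers among 37 knockout-labelled cells held 51.7% of the UMIs. Leaving out the richest cell of each library, a setting added after the values were seen, gave 5.75-fold (4.02 to 8.27) in cells with Il17a and Il2 and 3.16-fold (1.54 to 6.17), from 14 and 29 UMIs, in cells with Il17a alone. In cells with Il17a and Il2, 25% of knockout-labelled and 8.22% of wild-type-labelled cells carried an Il23r UMI, while in cells with Il17a alone the shares were closer, at 10.8% and 7.55%. Over all Il17a producers without Ifng, 27 of 129 knockout-labelled cells carried an Il23r UMI (20.9%, exact binomial interval 14.3 to 29.0) and among wild-type-labelled cells 46 of 577 did (7.97%, 5.90 to 10.5), with 4.93 and 2.22 UMIs per carrying cell. After thinning to equal depth the shares were 13.2% (7.87 to 20.3) and 2.08% (1.08 to 3.60). These producers were 18.2% of thinned knockout-labelled cells and held 64.3% of the Il23r UMIs of that library, while in the wild-type-labelled library they were 56.7% of cells and held 91.1%. Among Ifng producers without Il17a, taken as a stand-in for free RNA, 3 of 270 (1.11%) and 0 of 48 cells carried an Il23r UMI. The level of free RNA itself was not measured. In the wild-type-labelled library the exact binomial interval of these 48 cells overlapped that of the Il17a producers (5.90 to 10.5). This stand-in therefore could not set free RNA apart there. In the knockout-labelled library the interval of the Ifng producers lay below that of the Il17a producers. Median depths of the Il17a producers were 20762 and 21754 UMIs, and those of the Ifng producers 24082 and 18015.

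Il1r1 followed in the same cells with a smaller difference. In cells with Il17a and Il2 it stood at 70.8 CPM in the knockout-labelled and 32.3 CPM in the library labelled wild type, 2.19-fold higher (1.80 to 2.66), and in cells with Il17a alone at 52.2 and 24.7 CPM, 2.11-fold higher (1.52 to 2.89). A carrier share of 45.7% (36.9 to 54.7) in knockout-labelled and 31.2% (27.4 to 35.2) in wild-type-labelled Il17a producers without Ifng accompanied this, against 12.6% and 4.17% in their Ifng producers. Il23r and Il1r1 were the 2 called of 7 members at the floor in cells with Il17a and Il2 (6.49% of all genes) and the 2 of 8 in cells with Il17a alone (7.22%). The Il1r1 call in cells with Il17a and Il2, at a log2 ratio of 1.11, was lost with cutoffs of 1 UMI (0.60) and 10 UMIs (0.69) and with thinning to 2500 UMIs (0.66). In cells with Il17a alone its fold was 1.88 (1.30 to 2.66), short of a call, without the richest cell of each library.

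Il23r was lower than this within each library outside the Il17a producers, at 10.4 and 1.10 CPM in knockout-labelled and wild-type-labelled Il17f producers and 14.8 and 2.97 CPM in cells with Il2 alone. The last pair came from 30 and 4 UMIs, and without the richest cell of each library it was 3.0 and 0.755 CPM, and that of the Il17f producers 4.52 and 0.554 CPM. In the other classes the calls were scattered. In cells with both Il17a and Ifng, 2 of 6 members were called, Il1r1 higher in knockout-labelled cells (40.7 against 9.78 CPM) and Il18r1 lower (48.1 against 138 CPM), beside 7.79% of all genes. In those 35 knockout-labelled cells the 4 markers of γδ or innate-like T cells summed to 17.8 CPM, against 0 CPM in the wild-type-labelled class and 0 to 1.65 CPM in the other classes of both libraries, and 1 cell held 77.8% of the Il23r UMIs. Their part in these values was not tested. In cells with Ifng alone, 3 of 8 members were called lower (Il12rb1, Il12rb2 and Il6st), each from 13 or fewer UMIs per library and beside a background of 15.3%. Il6st was the 1 called of 7 in cells with none of the 4 cytokines, at 31.5 against 13.5 CPM (5.95% of all genes). In cells with Ifng and Il2, with Il17f, and with Il2 alone, 0 members were called, beside 6.82%, 7.36% and 8.01% of all genes.

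Weighting both libraries to the same share of each class took the difference in class shares out of the comparison. Il23r then stood at 18.3 CPM in the knockout-labelled and 3.17 CPM in the library labelled wild type, 5.78-fold higher (4.52 to 7.4). Its value was higher in 7 of 8 classes, but 2 of these tell little, cells with none of the 4 cytokines (2 UMIs in each library) and cells with Ifng and Il2 (3 and 0 UMIs). In cells with Il17a and Ifng and in cells with Il2 alone 1 cell held 77.8% and 80% of the knockout-labelled UMIs. Without the richest cell of each class and library, the weighted values were 11.7 and 2.26 CPM, 5.19-fold. Il1r1, with a whole-library fold of 1.06 (0.934 to 1.21), was 1.94-fold higher (1.67 to 2.26), at 33.5 and 17.2 CPM, in 6 of 8 classes. Il2rb, 1.25-fold lower between whole libraries, stood at 122 and 117 CPM, a fold of 1.04 (0.968 to 1.11). Il2ra, Il7r and Il12rb2 were lower in the knockout-labelled library in 8 of 8 classes in the main values. In cells with Ifng and Il2, the intervals of these folds included 1. Without the richest cell of each library, Il2ra and Il7r were slightly higher there in the knockout-labelled library. The values were 633 and 593 CPM for Il2ra and 63.8 and 61.3 CPM for Il7r. The innate lymphoid or mast cell sum was lower in 8 of 8 too, and its part was not tested. Over whole libraries Kit held most of that sum, while its marker Il1rl1 was higher in the knockout-labelled library. Il2ra was 1.38-fold lower (1.34 to 1.42), Il7r 1.41-fold lower (1.31 to 1.52) and Il12rb2 2.16-fold lower (1.65 to 2.82). Il6st was 1.78-fold higher (1.43 to 2.22), higher in 6 of 8 classes, and the intervals for Il2rg, Il12rb1 and Il18r1 included 1.

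**Figure D4:**
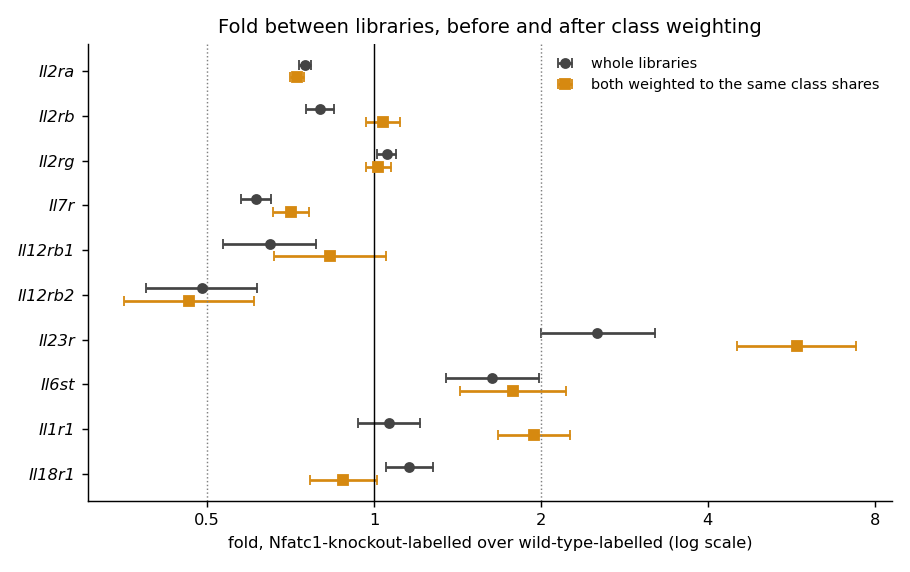
Fold of each receptor gene, Nfatc1-knockout-labelled over wild-type-labelled (log scale), for whole libraries (grey circles, conditional binomial 95% intervals) and with both libraries weighted to the same class shares (orange squares, intervals from Poisson counting error); the solid line is no difference and dotted lines are 2-fold. Weighting moves Il23r from 2.53 to 5.78 and Il1r1 from 1.06 to 1.94, and leaves Il2ra, Il7r and Il12rb2 below 1.

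Between Il2 producers and all other cells, no receptor gene at the floor passed 2-fold in the main values. That is, 0 of 7 members at the floor were called in the knockout-labelled and 0 of 6 in the library labelled wild type, beside 5.04% and 3.88% of all genes. Il2ra stood at 592 CPM in Il2 producers and 586 CPM in other cells of the knockout-labelled library, and at 716 and 875 CPM in the wild-type-labelled library. Il2rb was lower in Il2 producers in both, at 96.1 against 137 CPM and 122 against 143 CPM. Its level stood lowest in the cells with 100 or more Il2 UMIs per 5000, at 77.7 CPM in the knockout-labelled and 92.1 CPM in the library labelled wild type, and highest in those with 0, at 146 and 153 CPM. Il6st came nearest, 1.97-fold lower in knockout-labelled Il2 producers (1.5 to 2.59) at 10.9 against 21.5 CPM, and stood at 7.42 against 8.86 CPM in the wild-type-labelled library. Under the floor, Il12rb2 stood at 4.90 against 8.99 CPM, 1.84-fold lower (1.19 to 2.79), and 7.5 against 17.2 CPM, 2.29-fold lower (1.79 to 2.95). Il12rb1 was 1.61-fold (1.13 to 2.26) and 1.73-fold lower (1.39 to 2.16). For the mean of per-cell CPM no share of all genes called was computed. Under that setting 2 members were called lower in the knockout-labelled library. Il12rb1 was not among them, as its log2 ratio went no lower than -0.92 under any alternative. The lowest log2 ratios over the alternatives were -1.344 for Il6st, -1.345 for Il12rb2 and -1.088 for Il7r. Il7r was lower too, at 74.6 against 109 CPM and 115 against 157 CPM. Il18r1 differed in direction, 46.3 against 31.0 CPM in the knockout-labelled library and 27.7 against 48.5 CPM in the wild-type-labelled library. Cells with Ifng and Il2 but no Il17a made up 243 of 526 Il2 producers in the knockout-labelled library and 26 of 582 in the wild-type-labelled one, and their part in this was not tested.

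At the main cutoff of 5 UMIs, cells with none of the 4 cytokines carried more Il7r and Il12rb2 and less Il1r1 than producers. Il12rb2 stood at 4.93 CPM in producers and 15.8 CPM in cells with none in the knockout-labelled library, and at 10.4 and 30.4 CPM in the wild-type-labelled library, 3.20-fold and 2.91-fold lower in producers. Il7r stood at 76.2 and 150 CPM in the knockout-labelled and 129 and 196 CPM in the wild-type-labelled library. Il1r1 stood at 25.6 and 4.11 CPM and at 23.4 and 9.94 CPM, and Il6st at 11.6 and 31.5 CPM and at 7.66 and 13.5 CPM. The calls were Il1r1 higher and Il6st lower among 7 members in the knockout-labelled library (7.93% of all genes), and Il1r1 higher and Il12rb2 lower among 7 in the wild-type-labelled library (3.19%). Cells with none of the 4 were shallower, with medians of 15137 and 14417 UMIs, and held 77 and 98 cells. With a producer defined by 1 UMI only 9 and 8 cells were left in that class, and some directions turned. The log2 ratio of Il7r was then 0.94 in the knockout-labelled library (-0.97 at the main cutoff) and 0.50 in the wild-type-labelled one (-0.60). That of Il6st was 0.58 in the knockout-labelled library, where Il12rb2 stayed negative, and that of Il12rb2 was 0.15 in the wild-type-labelled library, where Il6st stayed negative. Il1r1 kept its direction in both libraries under every alternative run.

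Receptor chains that act together were mostly found together as often as their separate shares would give. In cells thinned to 5000 UMIs, Il2ra and Il2rb were both detected in 30.7% of knockout-labelled cells, beside a product of shares of 30.7%, and in 39.6% of wild-type-labelled cells, beside 39.3%. Il2rb with Il2rg gave 23.6% beside 24.3% and 31.6% beside 31.9%, and Il7r with Il2rg 18.6% beside 18.3% and 28.9% beside 27.7%. At this depth the detection of one of these chains thus told little about the other. Il18r1 with Il18rap, the accessory chain of the IL-18 receptor, was found in 10 of 698 knockout-labelled and 7 of 1004 wild-type-labelled cells, 3.17 and 2.41 times the product, from few cells. The wild-type-labelled interval (0.281% to 1.43%) included the product of 0.289%. Il6ra with Il6st was found in 5 and 2 cells, 1.85 and 1.11 times the product, with intervals that included the product. Il12rb1 with Il12rb2 was found in 0 and 2 cells. Il12rb1 with Il23r was found in 0 thinned cells of either library, which allows up to 0.527% and 0.367% of cells (exact binomial), and the products of 0.143% and 0.0774% lie under those limits, so thinned cells could not show whether they were found together. At full depth in Il17a producers without Ifng, both were found in 4 of 129 knockout-labelled cells (3.10%, beside a product of 3.89%) and 12 of 577 wild-type-labelled cells (2.08%, beside 1.81%).

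**Figure D5:**
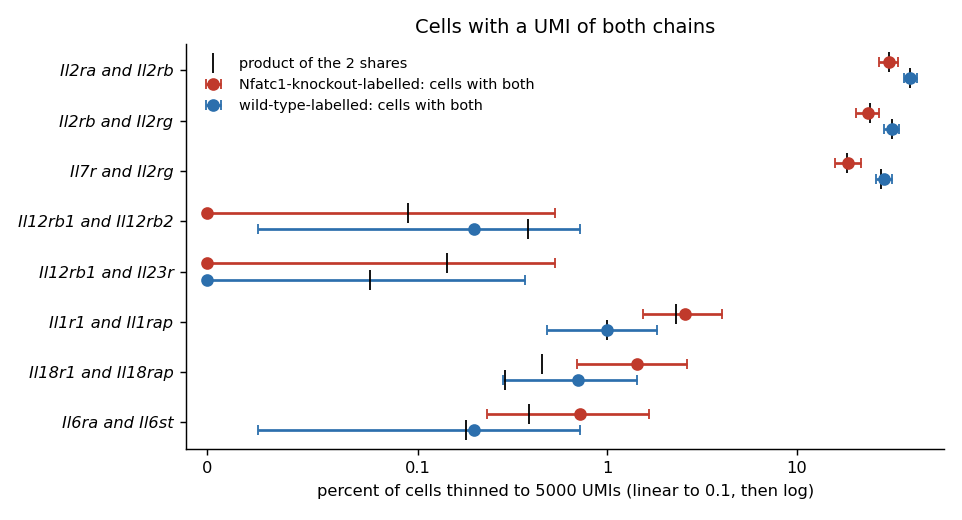
Percent of cells, thinned to 5000 UMIs, with a UMI of both chains of 8 receptors in the Nfatc1-knockout-labelled library (red, upper of each pair) and the wild-type-labelled library (blue, lower); whiskers are exact binomial 95% intervals and black ticks the product of the separate shares. Chains of the IL-2 and IL-7 receptors sit on their product, and Il18r1 with Il18rap lies above it, at 3.17 and 2.41 times. The wild-type-labelled interval of that pair includes the product. Il6ra with Il6st is at 1.85 and 1.11 times, from 5 and 2 cells.

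Among Il17a producers without Ifng, at full depth, Il1r1 was found more often in cells that carried Il23r. An Il1r1 UMI was present in 70.4% of Il23r carriers and 39.2% of other cells in the knockout-labelled library, and in 58.7% and 28.8% in the wild-type-labelled library. Cells with more UMIs hold more of every gene, and the part of depth in this overlap was not tested. Over the 16 combinations of library and class, which share 2 libraries, the log2 levels of Il23r and Il1r1 had a Pearson r of 0.75, Il12rb2 and Il7r 0.79, and Il23r and its chromosomal neighbour Il12rb2 -0.54. Il1r1 and Il18r1, in the same receptor cluster on chromosome 1, had -0.13, whereas Il18r1 and Il18rap, 14507 bases apart, had 0.62.

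The genes whose levels ran most like those of the receptors were named over the same 16 points, from 5126 candidates averaging at least 20 CPM. For Il2ra they were H2-K1 (r = 0.91), Ly6a (0.88) and Pik3r5 (0.88), and for Il2rb Cdc42 (0.93), Pdia4 (0.91) and Nans (0.91). Il2rg, which varied least, had lower values with Sfmbt1 (0.79), Ppp1r12a (0.79) and Cdk11b (0.74). For Il7r the nearest were Ctss (0.91), Selplg (0.89) and Stk10 (0.88), for Il1r1 Selenos (0.93), Mpc1 (0.91) and Mgat2 (0.86), and for Il18r1 Tnfrsf9 (0.83), S100a6 (0.78) and Ctla2a (0.78). Class sums of one library share depth and cells of one culture, so these values describe the samples only.

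Of 47 further genes of these pathways, 37 averaged at least 1 CPM, 21 reached the floor and 4 were called between the whole libraries, where 4.35% of all genes were. The median log2 ratio of the 37 was 0.04, beside -0.00 over 11322 genes. Among 13 measured partner and related receptor chains, 2 were called higher in the knockout-labelled library and 0 lower. Il1rap, the accessory chain without which Il1r1 does not signal, stood at 73.5 and 33.0 CPM, 2.22-fold higher (2.04 to 2.43), and was higher in 8 of 8 classes. Il21r, the receptor for IL-21, stood at 56.7 and 23.7 CPM, 2.39-fold higher (2.16 to 2.65). Il18rap stood at 14.1 and 6.71 CPM and Il6ra, the ligand-binding chain for IL-6, at 10.1 and 9.16 CPM. Il1r2, the decoy receptor for IL-1, was named after its values were seen and stood at 255 and 148 CPM, above Il1r1 in both libraries. The highest ratio of the list was that of Il1rl1, the IL-33 receptor, at 10.1 and 1.35 CPM, but 80.1% of its knockout-labelled UMIs lay in 10 cells.

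Among 7 measured ligand genes, 3 reached the floor. Of these, 2 were called lower in the knockout-labelled library and 0 higher, beside 4.35% of all genes. Of the 7 ratios, 4 were below 1 and 3 above. Il9, a ligand that signals through Il2rg, stood at 2.57 and 73.1 CPM, with a UMI in 2.40% and 3.93% of cells, and Il21, another, at 15.9 and 36.6 CPM. Il23a, which encodes the subunit particular to IL-23, stood at 1.96 and 7.36 CPM, below the floor, while its share of cells with a UMI ran the other way, at 2.96% and 1.87%. Il12b, the subunit shared by IL-12 and IL-23, was named after its values were seen and had 0 UMIs in both libraries, below 0.168 and 0.123 CPM (3 counts). Of the 17 kinases, STAT factors, inhibitors and adaptors downstream, all were measured, 11 reached the floor and 0 were called, beside the same 4.35%.

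Leaving out every cell with a UMI of a γδ or innate-like T, CD4 T, natural killer or B cell marker, a setting added once the values were known, removed 36 of 709 knockout-labelled and 69 of 1018 wild-type-labelled cells. The Il23r log2 ratio between whole libraries was then 1.07, beside 1.17 with all cells, and 2.49 beside 2.43 within cells with Il17a and Il2. For Il1r1 in that class the values were 1.08 and 1.11. Il18r1 in Il17a over Ifng producers of the wild-type-labelled library was -1.65, beside -1.07 with all cells.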

How the data were processed

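Libraries of single cells were prepared with version 3.1 of the 10x Genomics 3′ kit, per the labels. Deposited values are raw UMI counts per gene and barcode, 1 matrix per library, from Cell Ranger 7.0.0 per the file headers, on mm10 per the submitters' processing notes; no source used here gives the gene annotation or the use of intronic reads. From these counts, UMIs of kept barcodes were summed per library or class and divided by the total to give CPM. Sums have exact Poisson intervals, shares exact binomial (Clopper-Pearson) ones and folds conditional binomial ones. Cells were thinned without replacement to 5000 UMIs to be classed, and unthinned UMIs were then summed; 11 knockout-labelled and 14 wild-type-labelled cells were too shallow. Class weights were the mean of the class shares of both libraries. Log2 ratios used a pseudocount of 1 CPM, which understates those of low genes. Doublets were kept in the main values; Scrublet, at an expected rate of 5%, called 6 knockout-labelled and 5 wild-type-labelled cells (0.846% and 0.491%). The members, lists and tests were chosen with earlier results of these data known. The genes named are the 10 members, Nfatc1, the partner chains Il1rap, Il18rap and Il6ra, pathway genes called or among the 2 highest and 2 lowest log2 ratios, and the 3 genes most like each member that reached 20 CPM. Scripts were tested on simulated counts. Alternatives were other scalings, pseudocounts, floors, barcode filters, cytokine cutoffs and thinning depths, and, chosen after seeing the data, leaving out the cell richest in each member. Python 3.11.15, NumPy 2.4.6, SciPy 1.17.1, pandas 2.3.3, scanpy 1.11.5, R 4.3.3 and edgeR 4.0.16 (TMM factors only) were used.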

Additional observations from a re-analysis of the deposited data

Results flagged for a closer look

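Il18r1 differed in direction between the libraries when Il2 producers were compared with all other cells. The fold was 1.49 in the knockout-labelled library (1.23 to 1.83) and 0.571 in the wild-type-labelled library (0.499 to 0.653). The difference between these folds was not tested, as each library is 1 sample. With a producer defined by 1 UMI, the log2 ratio in the knockout-labelled library was -0.02, beside 0.56 in the main values.

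Multiplexing tags other than the leading one, which enter no comparison, held 64341 counts in the knockout-labelled and 121495 counts in the wild-type-labelled library. The same tag led in all 754 deposited barcodes of the knockout-labelled library and in all 1149 of the wild-type-labelled library, with 91.9% and 87.7% of the tag counts.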

How the results depend on the processing

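Each comparison was recomputed with 1 choice changed at a time. The median ratio of all genes at 20 CPM moved by less than 0.1 on the log2 scale under each scaling tried. Il23r was higher in the knockout-labelled library under all 15 alternatives of the whole-library comparison (log2 ratio 0.79 to 2.21, main value 1.17) and in cells with Il17a and Il2 under all 9 (1.98 to 2.59, main 2.43). Il1r1 was higher in that class under all 9 (0.60 to 1.12). Il1r1, Il18r1 and Il2rb changed sign between whole libraries under 1 alternative each. Il1r1 was at -0.03 without cells holding markers of other types. With equal class shares Il18r1 was at -0.18 and Il2rb at 0.05, beside -0.32 in the main values.

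Counts of members called moved as follows. Apart from the floor of 1 CPM (5.30% of all genes), no share of all genes called was computed for these settings. A floor of 1 CPM gave 1 higher between the libraries (0 in the main values). Among Il17a over Ifng producers of the knockout-labelled library, 1 was lower (0) with a cutoff of 1 UMI, thinning to 10000 UMIs or a total without the 50 most abundant genes; in the wild-type-labelled library 0 were lower (1) with a pseudocount of 5 CPM or without the cell richest in each member, and 2 with the mean of per-cell CPM. For producers of any of the 4 over cells with none, the knockout-labelled library gave 2 higher (1) with cutoffs of 1 and 10 UMIs, thinning to 2500, without the 50 genes and without the richest cell, and 0, 2, 2 and 3 lower (1) with a cutoff of 1 UMI, thinning to 10000, without the 50 genes and as the mean of per-cell CPM. The wild-type-labelled library gave 0 lower (1) with a cutoff of 1 UMI, and 0 higher (1) with a cutoff of 10 UMIs, thinning to 10000 or a pseudocount of 5. With a cutoff of 1 UMI the Il6st and Il12rb2 log2 ratios were 0.58 in the knockout-labelled and 0.15 in the library labelled wild type, with positive instead of negative sign; 9 and 8 cells were then left with none. Il2 producers over others gave 2 lower (0) as the mean of per-cell CPM in the knockout-labelled library and 1 without the 50 genes in the wild-type-labelled library. In cells with Il17a and Il2, 1 was higher (2) with cutoffs of 1 and 10 UMIs and thinning to 2500, the Il1r1 call being lost. With classes weighted alike, 1 was higher (0) with thinning to 2500, without the 50 genes and as the mean of per-cell CPM. At 2500 UMIs, 4 and 2 of the 8 receptor pairs exceeded 1.5 times the product (2 and 1). The causes were not tested.

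No paired analysis was possible because each group has 1 library, and no replicate could be left out. Depth limits the rare chains: 1 UMI is worth 0.0559 and 0.0409 CPM over a whole knockout-labelled and wild-type-labelled library, but 1.38 and 2.28 CPM in cells with Ifng alone.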
